A study of Mus musculus with 7 samples.

Results

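Collagen genes were examined in granule neuron precursors of the postnatal mouse cerebellum after a sort for Nestin, with Nestin-positive cells set against Nestin-negative cells. The genes were taken by name: every gene whose symbol in the platform annotation is Col, a type number, the letter a and a chain number, with all of its probe sets that are assigned to a single gene. This gave 42 genes with 82 probe sets, of 18193 genes with 34945 single-gene probe sets. Types 1, 3 and 5 were taken as the fibrillar class (6 genes), types 4 and 18 as the basement membrane class (7 genes) and all remaining types as other collagens (29 genes). Nestin-positive cells were hybridised as 4 samples (replicates 1, 3, 4 and 5) and Nestin-negative cells as 3 samples (replicates 1, 4 and 5), each on 1 Affymetrix Mouse Genome 430 2.0 array. All 7 samples carry the genotype Math1-Cre/Ptc-loxp/Nestin-CFP, so no group here has an intact lineage: Math1-Cre deletes Ptch1, the inhibitory Hedgehog receptor, in cells of the Math1 lineage of both fractions, and cells outside that lineage keep the gene. The Nestin-CFP reporter, a fluorescent protein under Nestin regulatory sequence, was the basis of the sort. The sample labels give postnatal day 7 and medulloblastoma as the tissue type, whereas the text of the series gives day 4. Cells were not cultured, and no label says that the samples came from separate animals, so p-values measure the spread between these samples, which may be technical.

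Collagens are secreted proteins built from 3 chains wound into a triple helix, and each type is defined by the chains it combines. Fibrillar collagens form the tensile fibres of connective tissue, which in the brain means the meninges and the walls of larger vessels, where fibroblasts and mural cells make them. Type 4 collagen forms the sheet-like network of basement membranes around vessels and below the pial surface, and type 18 collagen is a basement membrane proteoglycan that carries endostatin at its end.

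Of 19 collagen genes tested, 0 passed the threshold (limma, adjusted p under 0.05; 4 at an unadjusted p under 0.05) when the fractions were compared without pairing, where 0.749% of all genes passed. Once samples with the same replicate number were compared within pairs, 8 did so, where 9.98% of all genes passed. No label states this pairing, which was inferred from the same data and rests on 3 pairs. In that paired comparison the interstitial and basement membrane chains Col1a2, Col3a1, Col4a2 and Col6a3 fell in the Nestin-positive fraction, as did Col9a1, while Col5a2, Col11a1 and Col18a1 rose. The fall of Col1a2 was 2.92-fold and the rises were between 1.29-fold and 1.43-fold. Col6a3, which was dim on 3 of the 4 Nestin-positive arrays, fell by 1.75 on the log2 scale, or by 1.26 with dim values raised to the array median. Estimated changes of genes of the same class lay on both sides of 0 in each of the 3 classes, with no test of their difference. Of the calls above, those of Col1a2 and Col3a1 alone were made in every alternative blocked fit.

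A probe set's level was judged against the median signal of its array, which lay at 94.0 on Nestin-positive and 94.7 on Nestin-negative replicate 1 and between 64.6 and 84.3 on the other 5 arrays. A gene was tested if a probe set of it reached that median on at least 3 arrays, and its brightest such probe set stood for it. Of the 42 collagen genes 19 were tested, 4 fibrillar, 4 of the basement membrane and 11 others, among 11081 genes in all. Each of the 19 reached the median on some Nestin-positive array, and 1, Col25a1, reached it on Nestin-positive arrays alone. Col6a3 reached it on 1 Nestin-positive array and on all 3 Nestin-negative arrays, which by themselves met the filter. Signals of different probe sets are not comparable as levels, because each probe set binds with its own strength. Comparisons below are therefore between arrays for the same probe set or probe sets. The Col4a2 to Col4a1 ratio and the summed marker signals combine probe sets within an array, and bright probe sets weigh most in a sum.

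Same-numbered samples deviated together: how far each gene lay from its group mean correlated between arrays with r = 0.71, 0.39 and 0.47 for replicates 1, 4 and 5, against -0.60 to 0.19 for pairs of different numbers. These are correlations across genes, which are not independent replicates, and no label states that the numbers mark a shared litter or sort. Deviations from a group mean also cancel out within the group, so a high value for a same-numbered pair lowers the others. The contrast with pairs of different numbers is therefore partly built in. The fit with the replicate number as a block rests on 3 pairs and leaves each gene 2 residual degrees of freedom, so its standard errors come largely from spread pooled over genes. Nestin-positive replicate 3, which has no partner, adds nothing to it. Nestin-negative replicate 1 stood apart from the other Nestin-negative arrays for collagen genes, with a mean log2 signal over the 19 genes of -0.47 relative to all arrays. The other Nestin-negative arrays were at 0.57 and 0.60 and the Nestin-positive arrays between -0.48 and 0.11. Unpaired changes without this array are therefore given beside the genes below whose change it moved by about 1.5 times or more.

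Col1a2, the second chain of type 1 collagen and the main fibre of meninges and tendon, gave the clearest fibrillar difference. Its signal was 173, 295, 336 and 377 on Nestin-positive replicates 1, 3, 4 and 5, against 280, 1303 and 1499 on Nestin-negative replicates 1, 4 and 5. Nestin-negative replicates 4 and 5 stood above every Nestin-positive array, and Nestin-negative replicate 1 lay inside the Nestin-positive range. Nestin-positive arrays averaged 295 ± 87.9 (SD, n = 4), against 1027 ± 654 (SD, n = 3) for Nestin-negative arrays, a log2 change of -1.53 ± 0.52 (SE; limma, adjusted p = 0.214). Without Nestin-negative replicate 1 it was -2.30 ± 0.28 (adjusted p = 0.0462), the only call of a collagen gene among the fits without the block. With the block the change was -1.55 ± 0.19 (adjusted p = 1.68e-05), with single pairs at -0.69, -1.95 and -1.99 for replicates 1, 4 and 5. A dimmer Col1a2 probe set differed by -1.69 ± 0.67, or -1.77 ± 0.22 with the block, when every probe set was fitted on its own.

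Col3a1, the chain of type 3 collagen, which forms fibres together with type 1 in vessel walls, followed the same order of arrays within the Nestin-negative fraction. Its signal was 916, 401, 1496 and 1282 on the Nestin-positive arrays in the order above, against 1108, 4137 and 4219 on the Nestin-negative arrays. Nestin-negative replicates 4 and 5 were again the highest of all, and the fractions overlapped through Nestin-negative replicate 1. The log2 change was -1.55 ± 0.53 (limma, adjusted p = 0.217), and -1.15 ± 0.18 with the block (adjusted p = 1.85e-04), where the pairs were at -0.28, -1.47 and -1.72. Without Nestin-negative replicate 1 the unpaired change was -2.19 ± 0.43 (adjusted p = 0.0874). The blocked change lay between -1.59 and -0.87 with each pair left out. Its second probe set changed in the same direction, by -1.27 ± 0.62, or -1.01 ± 0.29 with the block.

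The upstream sequences of Col1a2 and Col3a1, which fell together in the paired comparison, are set beside that of Col11a1, which rose in it, to show how different the start regions of these genes are. Each is the stretch of 250 bases before the annotated start in RefSeq's GRCm38.p6 table, read 5′ to 3′ on the plus strand, with capitals on the motifs searched.
Col1a2, chr6:4505368-4505617: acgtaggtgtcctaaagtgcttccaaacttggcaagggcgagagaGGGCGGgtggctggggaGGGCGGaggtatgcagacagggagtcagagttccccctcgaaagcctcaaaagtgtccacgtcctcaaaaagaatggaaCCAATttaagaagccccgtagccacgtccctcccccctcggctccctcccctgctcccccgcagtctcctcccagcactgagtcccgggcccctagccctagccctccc
Col3a1, chr1:45311288-45311537: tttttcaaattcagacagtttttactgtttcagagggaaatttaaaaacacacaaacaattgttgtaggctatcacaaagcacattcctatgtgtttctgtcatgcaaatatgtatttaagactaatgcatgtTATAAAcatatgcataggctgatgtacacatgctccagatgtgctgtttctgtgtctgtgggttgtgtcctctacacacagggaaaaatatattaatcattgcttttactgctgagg
Col11a1, chr3:114030290-114030539: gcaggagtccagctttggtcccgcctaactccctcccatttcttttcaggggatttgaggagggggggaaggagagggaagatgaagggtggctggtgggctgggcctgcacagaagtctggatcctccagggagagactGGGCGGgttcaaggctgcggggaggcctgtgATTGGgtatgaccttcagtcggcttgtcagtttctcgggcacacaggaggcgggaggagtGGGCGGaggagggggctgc
The motifs were the CCAAT box (CCAAT, or ATTGG on the minus strand), the GC box (GGGCGG or CCGCCC) and the TATA box (TATAAA or TTTATA), none of which overlapped another here. Only exact letters were counted, wherever in the window they lay. Col1a2 held a CCAAT box at 109 bases before the start and 2 GC boxes. Col11a1 held a CCAAT box at 79 bases and 2 GC boxes, and Col3a1 held the TATA box letters at 117 bases alone. Over the 32851 windows of the table, 33.8% held the CCAAT box, 32.7% the GC box and 12.4% the TATA box. Of the 36 windows found for 33 of the 42 collagen genes, 13, 21 and 5 did so. The Col1a2 and Col3a1 windows shared none of the 3 motifs, while those of Col1a2 and Col11a1 shared both the CCAAT and the GC box. Any relation of these motifs to the changes was not tested. A match describes these letters and is no evidence of binding.

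**Figure D1:**
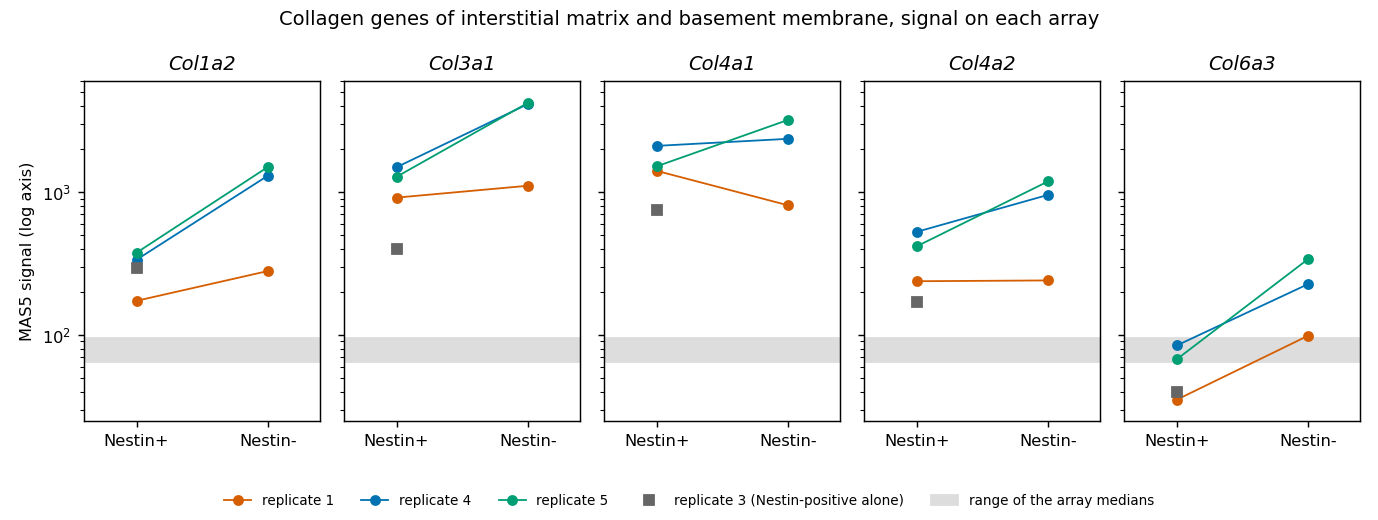
MAS5 signal on a log axis for 5 collagen genes of interstitial matrix and basement membrane, Nestin-positive arrays on the left and Nestin-negative arrays on the right of each panel, with lines joining samples of the same replicate number and the grey band showing the range of the array medians (64.6 to 94.7). Nestin-negative replicates 4 and 5 are the highest arrays for each of the 5 genes, while Nestin-negative replicate 1 lies among the Nestin-positive arrays for Col1a2, Col3a1, Col4a1 and Col4a2.

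Col1a1, the first chain of type 1 collagen, was not tested, because its brighter probe set reached the array median on 1 array alone. That probe set had a signal of 29.6, 18.8, 28.9 and 15 on the Nestin-positive arrays, against 48.9, 70.6 and 107 on the Nestin-negative arrays. Every Nestin-negative array was above every Nestin-positive array, but at a level where MAS5 signals are noisy. Type 5 collagen nucleates type 1 fibres and limits their width, and of its chains Col5a2 was called, with the block. Col5a2 had a signal of 1511, 805, 1525 and 1382 on the Nestin-positive arrays, against 854, 1060 and 1196 on the Nestin-negative arrays. It was higher in Nestin-positive cells in each pair, and the fractions overlapped through the unpaired Nestin-positive replicate 3, the lowest of all arrays.

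The log2 change of Col5a2 was 0.30 ± 0.23 (limma, adjusted p = 0.615), which became 0.17 ± 0.25 when Nestin-negative replicate 1 was left out. The blocked change was 0.52 ± 0.12 (adjusted p = 0.00834), a 1.43-fold rise. Without the pair of replicate 1 the blocked change was 0.37 and was no longer called (adjusted p = 0.140). The second Col5a2 probe set read 0.67 ± 0.26, or 0.90 ± 0.14 with the block. Col5a1, whose product pairs with that of Col5a2, showed a change of 0.16 ± 0.25 (limma, adjusted p = 0.824, or 0.711 in the blocked fit), with signals of 222 to 280 in Nestin-positive and 142 to 301 in Nestin-negative cells. Its 2 kept probe sets disagreed in sign, the dimmer one reading -0.30 ± 0.19, and the change was -0.15 ± 0.20 without Nestin-negative replicate 1. Col5a3 stayed under the median of all 7 arrays.

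Among basement membrane genes, Col4a2 was lower in Nestin-positive cells with the block and its partner Col4a1 was not called. These genes encode the chains of the common type 4 network, and they are read from 1 shared region in opposite directions: in the RefSeq table their start sites on chromosome 8 face away from each other and the transcripts overlap by 22 bases. Col4a2 had a signal of 238, 169, 527 and 417 on the Nestin-positive arrays, against 241, 956 and 1188 on the Nestin-negative arrays. Nestin-negative replicates 4 and 5 stood above all other arrays, and the samples of replicate 1 were nearly equal. The log2 change was -1.08 ± 0.55 (limma, adjusted p = 0.416), which became -1.80 ± 0.40 when Nestin-negative replicate 1 was left out (adjusted p = 0.108). The blocked change was -0.80 ± 0.19 (adjusted p = 0.00982). The pairs stood far apart, at -0.02, -0.86 and -1.51, and without the pair of replicate 5 the blocked change was -0.44 and not called (adjusted p = 0.212), nor was Col4a2 called with every probe set tested on its own (0.0606).

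Col4a1 had a signal of 1410, 756, 2109 and 1516 on the Nestin-positive arrays, against 809, 2363 and 3203 on the Nestin-negative arrays. In this probe set replicate 1 ran the opposite way from replicates 4 and 5, with pairs at 0.80, -0.16 and -1.08. Its log2 change was -0.43 ± 0.46 (limma, adjusted p = 0.726), which became -1.02 ± 0.34 when Nestin-negative replicate 1 was left out (adjusted p = 0.254). The blocked change was -0.15 ± 0.20 (adjusted p = 0.742), and -0.62 with the block but without the pair of replicate 1, where it was called (adjusted p = 3.68e-04). A dimmer Col4a1 probe set had 132, 169, 391 and 141 on the Nestin-positive arrays, against 221, 250 and 485 on the Nestin-negative arrays. There replicates 1 and 5 were lower in Nestin-positive cells and replicate 4 was higher. It read -0.67 ± 0.44, or -0.62 ± 0.32 with the block, and was called in neither fit (limma, adjusted p = 0.726 and 0.378). Within each array, the log2 ratio of the Col4a2 signal to the brighter Col4a1 signal was -2.57, -2.16, -2.0 and -1.86 in Nestin-positive cells, against -1.75, -1.30 and -1.43 in Nestin-negative cells. The fractions did not overlap in this ratio. Against the dimmer Col4a1 probe set they did, at 0.00 to 1.56 in Nestin-positive and 0.13 to 1.94 in Nestin-negative cells, so whether the partners changed unequally depends on the probe set. The ratio was chosen after its values were seen and was not tested.

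Col18a1, the type 18 proteoglycan, rose with the block. Its signal was 2493, 3528, 3452 and 3449 on the Nestin-positive arrays, against 1858, 2365 and 3170 on the Nestin-negative arrays. It was higher in Nestin-positive cells in each pair, though Nestin-positive replicate 1 fell within the Nestin-negative range. The log2 change was 0.41 ± 0.19 (limma, adjusted p = 0.370), which became 0.22 ± 0.18 when Nestin-negative replicate 1 was left out. The blocked change was 0.36 ± 0.11 (adjusted p = 0.0344). This call was narrow: it was lost without the pair of replicate 1 (adjusted p = 0.120), without the pair of replicate 4 (0.0988), with quantile normalization (0.0643), with the mean of the gene's probe sets (0.0668) and with every probe set tested on its own (0.0921). The second Col18a1 probe set read 0.42 ± 0.28, or 0.35 ± 0.14 with the block. Col4a5, a chain of the specialised type 4 networks, showed a change of 0.24 ± 0.26 (limma, adjusted p = 0.730, or 0.552 in the blocked fit), and of -0.12 ± 0.17 without Nestin-negative replicate 1. Col4a3 and Col4a4, which join it in kidney glomerular membrane, stayed under the median of all 7 arrays.

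**Figure D2:**
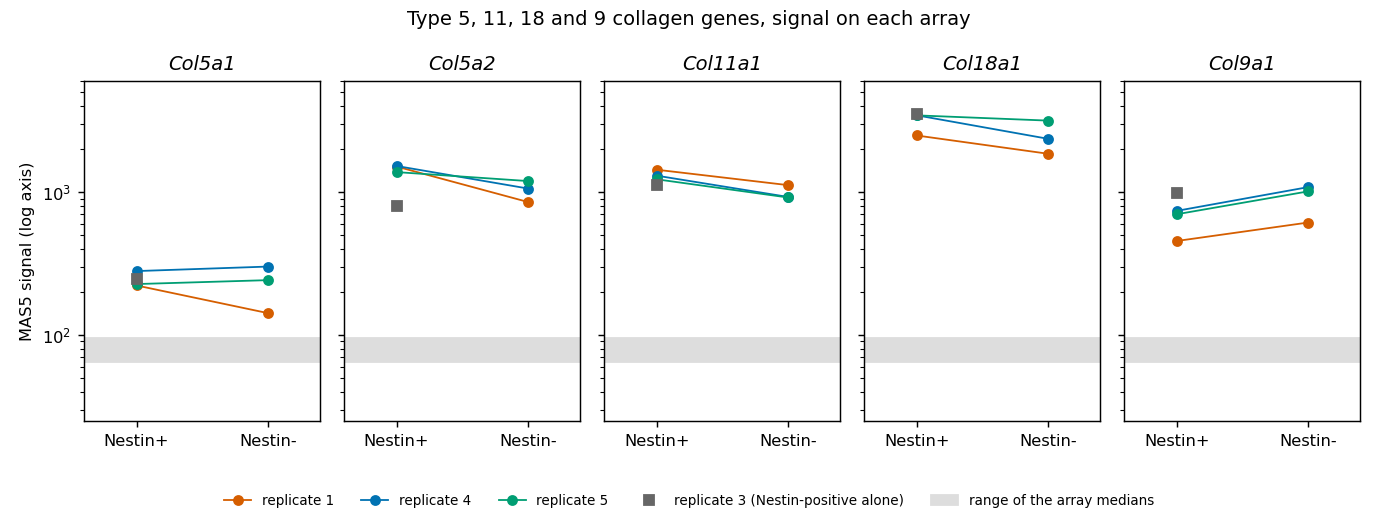
MAS5 signal on a log axis for Col5a1, Col5a2, Col11a1, Col18a1 and Col9a1, drawn as in the plot of the interstitial and type 4 genes, with Nestin-positive arrays on the left of each panel. Lines of all 3 pairs slope down to the Nestin-negative side for Col5a2, Col11a1 and Col18a1 and up for Col9a1, and all arrays lie above the grey band of array medians.

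Type 6 collagen forms beaded filaments around mural cells and fibroblasts, and its chains Col6a1, Col6a2 and Col6a3 assemble together. Their signals lay below the array median on 3, 2 and 3 of the 4 Nestin-positive arrays and on 1, 1 and 0 of the 3 Nestin-negative arrays. Col6a3 had a signal of 35.2, 39.7, 84.4 and 67.5 on the Nestin-positive arrays, against 98.6, 227 and 339 on the Nestin-negative arrays. The fractions did not overlap, but 3 of the 4 Nestin-positive values lay below the array median, where the size of a ratio is uncertain. Its Nestin-negative arrays by themselves met the filter, so its being tested was not independent of where it was high. It was the collagen gene with the smallest p-value in the unpaired fit, at a log2 change of -1.89 ± 0.46 (limma, adjusted p = 0.101). With the block it fell by 1.75 ± 0.29 on the log2 scale (adjusted p = 3.90e-04), and with values below the array median raised to it the blocked adjusted p was 0.0147. Without the pair of replicate 4 it did not pass the filter and was not tested.

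Col6a1 differed by -1.10 ± 0.51 and Col6a2 by -1.42 ± 0.77 (limma, adjusted p = 0.368 and 0.458), and neither was called with the block (adjusted p = 0.172 and 0.120). Without Nestin-negative replicate 1 the unpaired changes were -1.73 ± 0.40 and -2.18 ± 0.72 (adjusted p = 0.114 and 0.254). For both, Nestin-negative replicates 4 and 5 were at 196 to 283, above every Nestin-positive array, whose signals ran from 15.4 to 126. Nestin-negative replicate 1, at 53.9 for Col6a1 and 53.6 for Col6a2, lay within the Nestin-positive range for these probe sets. Without the pair of replicate 1 both fell with the block, as both also did with dim values raised to the array median. A dimmer Col6a2 probe set had 66.6, 15.4, 46.8 and 73.4 on the Nestin-positive arrays, against 97.2, 151 and 154 on the Nestin-negative arrays. Its fractions did not overlap. Fitted on its own it read -1.60 ± 0.57, or -1.10 ± 0.35 with the block, and was called in neither fit (limma, adjusted p = 0.412 and 0.104).

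Of the cartilage-type collagens, Col9a1, a chain of the type 9 molecule that decorates fibrils, fell in the paired comparison, and Col11a1, a minor fibrillar chain, rose. Col9a1 had a signal of 455, 981, 739 and 700 on the Nestin-positive arrays, against 612, 1084 and 1012 on the Nestin-negative arrays. The fractions overlapped, but the 3 pairs were close to each other at -0.43, -0.55 and -0.53. Its log2 change was -0.34 ± 0.27 (limma, adjusted p = 0.634), which became -0.60 ± 0.26 when Nestin-negative replicate 1 was left out (adjusted p = 0.399). The blocked change was -0.50 ± 0.12 (adjusted p = 0.00724), or a 1.42-fold fall that was called with each pair left out. Its second probe set read -0.31 ± 0.21 and was not called (adjusted p = 0.414 with the block). With the mean of both probe sets the blocked adjusted p was 0.0508.

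Col9a3, another chain of type 9, had a signal of 2037, 1280, 1997 and 1487 on the Nestin-positive arrays, against 2413, 2097 and 1586 on the Nestin-negative arrays. The fractions overlapped for this probe set and the change of -0.26 ± 0.20 was called in neither fit (limma, adjusted p = 0.616, and 0.506 with the block; -0.13 ± 0.21 without Nestin-negative replicate 1). A second Col9a3 probe set had 1183, 1255, 1031 and 1223 on the Nestin-positive arrays, against 1394, 1401 and 1390 on the Nestin-negative arrays, with no overlap. Fitted on its own it read -0.25 ± 0.11 and was not called (adjusted p = 0.500, and 0.210 with the block). Col9a2, the remaining chain of the type, stayed under the median of all 7 arrays.

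Col11a1 had a signal of 1436, 1131, 1305 and 1230 on the Nestin-positive arrays, against 1120, 926 and 918 on the Nestin-negative arrays. Every Nestin-positive array was above every Nestin-negative array, and it was the only collagen gene tested with this order. The margin was small, since Nestin-positive replicate 3 exceeded Nestin-negative replicate 1 by less than the spread within either fraction. The log2 change was 0.37 ± 0.13 (limma, adjusted p = 0.236), and 0.43 ± 0.11 with the block (adjusted p = 0.0150), a 1.34-fold rise. The blocked adjusted p was 0.0676 without the pair of replicate 5 and 0.133 with the mean of the gene's probe sets, because the second Col11a1 probe set read only 0.18 ± 0.13. That probe set had a signal of 1032, 1010, 798 and 942 on the Nestin-positive arrays, against 770, 931 and 805 on the Nestin-negative arrays, and its fractions overlapped.

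The other collagens tested were called in neither fit. Col16a1, which associates with fibrils in several tissues, differed by -0.40 ± 0.36 (-0.72 ± 0.35 without Nestin-negative replicate 1), with all 3 pairs between -0.54 and -0.49 but dim signals of 51.6 to 106 in Nestin-positive and 72.5 to 140 in Nestin-negative cells. Col23a1, a membrane-spanning collagen, differed by -0.05 ± 0.32 but lay below the array median on 3 of the 4 Nestin-positive arrays. Col25a1, of the same kind, was under the median of each of the 3 Nestin-negative arrays and was kept through Nestin-positive arrays alone. Set against those medians, its Nestin-positive mean was only 1.03-fold higher. The fractions overlapped, so no difference is established. Col27a1, a minor fibrillar chain, differed by 0.03 ± 0.24 and Col2a1, the main chain of cartilage, by 0.33 ± 0.35. Leaving out Nestin-negative replicate 1 gave -0.29 for Col23a1, -0.19 for Col27a1 and -0.01 for Col2a1. Their adjusted p-values lay between 0.640 and 0.975 without the block.

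The 23 genes that were not tested included 16 with every probe set below the array median on all 7 arrays. In the other 7, all the arrays that reached the median were Nestin-negative ones. For Col13a1, Col15a1 and Col26a1 these were Nestin-negative replicates 4 and 5, and for Col1a1, Col4a6, Col7a1 and Col12a1 it was 1 array each. Col15a1, a relative of type 18 collagen found in basement membrane zones of vessels, had a signal of 4.72, 11.5, 29.3 and 6.10 on the Nestin-positive arrays, against 5.88, 108 and 137 on the Nestin-negative arrays. Col13a1, a membrane-spanning collagen, had 6.09 to 33.0 on the Nestin-positive arrays, against 11.3, 104 and 95.1 on the Nestin-negative arrays. In both, as for Col1a2 and Col3a1, Nestin-negative replicates 4 and 5 were above every Nestin-positive array and Nestin-negative replicate 1 lay within the Nestin-positive range. In a fit without the filter on dim probe sets, the blocked adjusted p was 0.171 for Col15a1, 0.618 for Col13a1, 0.116 for Col26a1 and 0.132 for Col1a1.

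**Figure D3:**
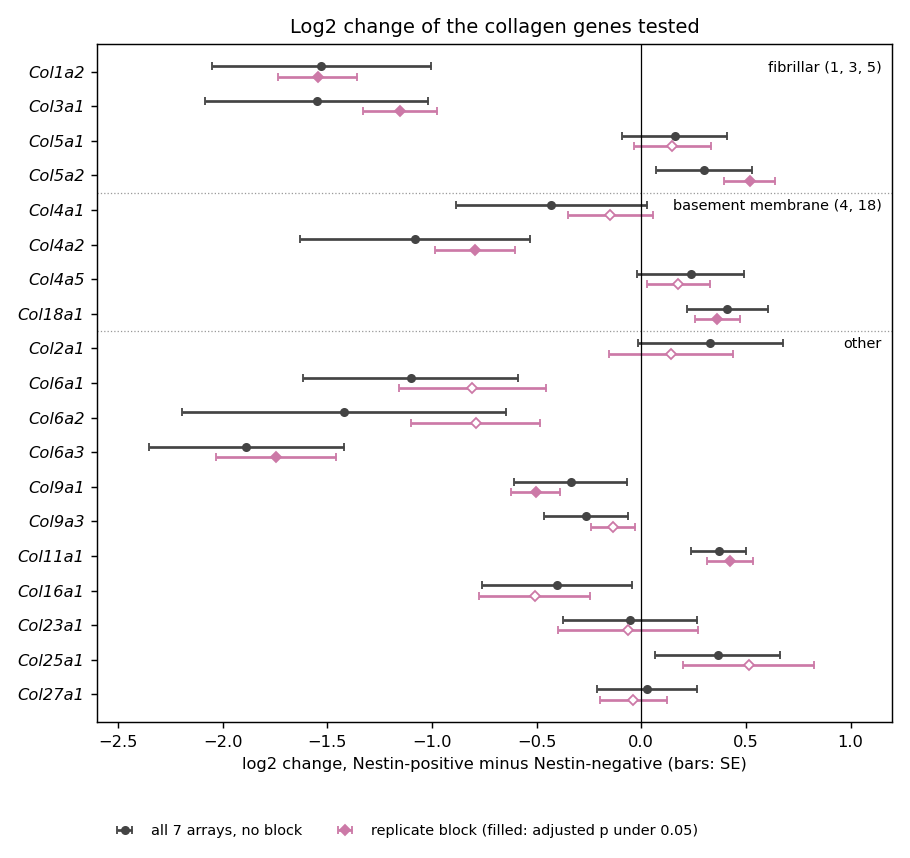
Log2 change (Nestin-positive minus Nestin-negative, with standard errors) of the 19 collagen genes tested, in the fit of all 7 arrays (dots) and with the replicate block (diamonds, filled where the adjusted p is under 0.05). Col1a2, Col3a1, Col4a2, Col6a3 and Col9a1 lie below 0 and Col5a2, Col11a1 and Col18a1 above it among the filled diamonds; Col25a1 was dim in every Nestin-negative sample, so its point is no estimate of size.

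Over the 19 genes, limma without the block called 0 (4 at an unadjusted p under 0.05, Col1a2, Col3a1 and Col6a3 lower and Col11a1 higher), where 0.749% of all genes were called, 0.578% lower and 0.171% higher. At the unadjusted threshold the background was 9.10% lower and 5.32% higher. With the block 5 of the 19 fell and 3 rose, where 9.98% of the 11081 genes were called, 6.40% lower and 3.58% higher. The fractions did not overlap for 1 gene with Nestin-positive arrays lower, Col6a3, and for 1 with them higher, Col11a1, against 9.11% and 5.87% of all genes.

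The median log2 change was -0.26 over the 19 genes, against -0.03 over all genes tested. It moved to -0.03 without Nestin-negative replicate 5 (all genes -0.02), -0.14 with the block, and 0.08 with the block but without the pair of replicate 5 (all genes -0.01; 15 collagen genes tested). By class it was -0.68 for the 4 fibrillar genes, -0.10 for the 4 basement membrane genes and -0.26 for the 11 others, with ranges of -1.55 to 0.30, -1.08 to 0.41 and -1.89 to 0.37. With the block the class medians were -0.50, 0.02 and -0.14. The fibrillar class therefore joins a pair of strongly lower genes, Col1a2 and Col3a1, with Col5a2 and Col5a1, which did not fall in either fit, and its median describes neither pair. Without Nestin-negative replicate 1 the class medians were -1.17, -0.57 and -0.29, and without Nestin-negative replicate 5 they were -0.43, 0.24 and -0.23. Classes were compared by these values alone, with no test of the difference between them.

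Marker lists of several cell types were read on the same arrays. Relative to the mean of all arrays, the 7 measured meningeal fibroblast markers (of 17 listed) averaged -1.31, -0.69, 0.08 and -0.10 in log2 signal on the Nestin-positive arrays, against -0.48, 1.21 and 1.29 on the Nestin-negative arrays. All 7 were lower in log2 signal, by a median change of -1.31. Without the block 0 were called (4 at an unadjusted p under 0.05, where 9.10% of all genes were lower). With it 5 fell, where 6.40% of all genes did. Dcn and Lum were among the 5 and are also on the list of collagen binding genes. Dcn, which encodes a proteoglycan bound to collagen fibrils, had a signal of 38.1, 63.0, 233 and 206 on the Nestin-positive arrays, against 118, 880 and 997 on the Nestin-negative arrays. The order of arrays, with Nestin-negative replicates 4 and 5 on top and replicate 1 inside the Nestin-positive range, was that of Col1a2 and Col3a1.

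The 9 measured pericyte and smooth muscle markers (of 13) had a median log2 change of -1.82. Of these 0 were called without the block (7 at an unadjusted p under 0.05, beside 9.10% of all genes lower). With the block 8 fell, beside 6.40% of all genes. They averaged -1.88 to 0.16 on the Nestin-positive arrays, against -0.27, 1.59 and 2.01 on the Nestin-negative arrays. The 12 endothelial markers (of 17) had a median of -0.58, 0 were called in either fit (0 at an unadjusted p under 0.05 without the block), and their averages of -1.69 to 0.86 on the Nestin-positive arrays overlapped those of -0.89 to 0.98 on the Nestin-negative arrays. The 7 microglia and macrophage markers (of 11) had a median of -2.87. Because 0 of them reached the median of every Nestin-positive array, the size of this change is uncertain. For all 7 the Nestin-negative arrays by themselves met the filter, so being tested was not independent of where they were high. All 7 fell with the block, and Lyz2 and Csf1r also without it, beside 6.40% and 0.578% of all genes. They averaged -2.14 to 0.01 on the Nestin-positive arrays, against 0.96, 1.32 and 2.79 on the Nestin-negative arrays, so that Nestin-negative replicate 1 was high for these markers and low for the meningeal ones.

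In summed signal, the meningeal markers ranged from 3419 to 4642 on Nestin-positive and from 4298 to 7594 on Nestin-negative arrays, and the pericyte and smooth muscle markers from 583 to 1993 and from 1389 to 9517. Of the 7 meningeal markers 3 reached the median of each Nestin-positive array and 6 that of each Nestin-negative array. For pericyte markers these counts were 1 and 6 of 9, for endothelial markers 1 and 5 of 12, and for microglial markers 0 and 7 of 7. Reaching the median of all 3 Nestin-negative arrays by itself meets the filter, so being tested was not independent of where such markers were high. Shares of all genes set beside these lists carry that limit. Values below the array median also leave the size of a change uncertain. No marker measured was listed at 0 on any array. The 12 granule neuron precursor markers (of 13), at or above the array median on all arrays, had a median of -0.02, and their mean lay between -0.08 and 0.10 on every array. With the block Neurod1 fell by 0.49 ± 0.11 on the log2 scale, and Barhl1, Ccnd1 and Atoh1 rose by 0.42, 0.34 and 0.35, so the flat mean joins members that moved in opposite directions. The part of these other cells in the collagen differences was not tested, and in bulk samples fewer cells of a type and less RNA per cell cannot be told apart. The 10 astrocyte and Bergmann glia markers (of 11) had a median of -0.14. With the block 4 fell and 2 rose, beside 6.40% and 3.58% of all genes.

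**Figure D4:**
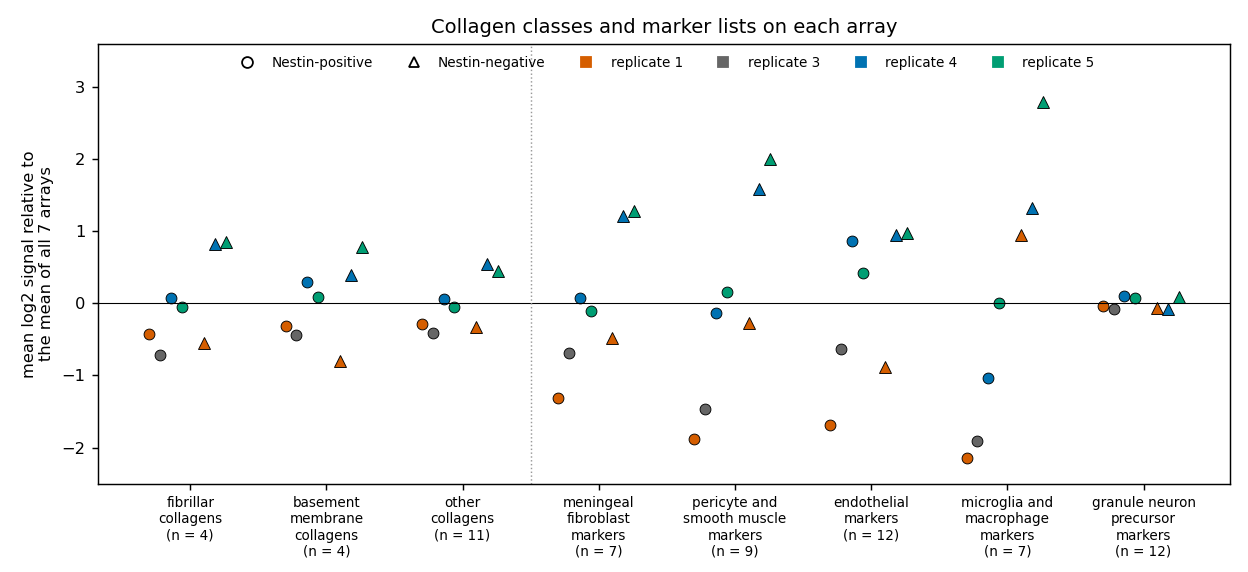
Mean log2 signal, relative to the mean of all 7 arrays, of the collagen classes (left of the dotted line) and of marker lists (right), 1 point per array, with circles for Nestin-positive and triangles for Nestin-negative arrays and colours for replicate numbers. Nestin-negative replicates 4 and 5 are the highest arrays for each collagen class and for the meningeal, pericyte and endothelial lists, and the mean of the precursor markers, whose members moved in both directions, stays between -0.08 and 0.10.

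Genes that make, process and crosslink collagen, inside and outside the cell, were described from a list of 32. Of these 18 were tested, with a median log2 change of 0.01. Without the block limma called 0 (0 lower and 2 higher at an unadjusted p under 0.05, beside 9.10% and 5.32% of all genes). With the block 2 rose and 0 fell, beside 3.58% and 6.40% of all genes. Loxl1, a lysyl oxidase that crosslinks collagen and elastin outside the cell, had a signal of 3209, 3298, 4628 and 3821 on the Nestin-positive arrays, against 1796, 2379 and 2964 on the Nestin-negative arrays. Its fractions did not overlap, and the log2 change was 0.67 ± 0.19 (adjusted p = 0.138), or 0.72 ± 0.11 with the block (adjusted p = 2.68e-04). Plod2, a lysyl hydroxylase that prepares chains for crosslinking, differed by 0.47 ± 0.18 and rose with the block by 0.41 ± 0.11 (adjusted p = 0.0186). P3h4, a partner of the prolyl 3-hydroxylases, and Ppib, a proline isomerase that helps chains to fold, differed by -0.32 ± 0.15 and -0.28 ± 0.14 and were not called in either fit. Serpinh1, the collagen-specific chaperone, differed by -0.02 ± 0.21.

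Genes that bind, remodel or sense collagen were mixed. Of 27 listed 15 were tested, with a median of -0.07. Without the block 0 were called (5 lower and 0 higher at an unadjusted p under 0.05, beside 9.10% and 5.32% of all genes). With the block 6 fell and 2 rose, beside 6.40% and 3.58% of all genes. The 2 that rose were Fbln1, by 0.55 ± 0.14, and Ddr2, by 0.42 ± 0.11 on the log2 scale (limma, adjusted p = 0.0135 and 0.0225). Timp2, an inhibitor of matrix metalloproteinases, had a signal of 80.1, 99.9, 85.9 and 83.1 on the Nestin-positive arrays, against 142, 233 and 247 on the Nestin-negative arrays. Timp3, a matrix-bound inhibitor of the same family, had 220, 416, 336 and 372 on the Nestin-positive arrays, against 657, 697 and 606 on the Nestin-negative arrays. In both genes every Nestin-negative array, replicate 1 included, was above every Nestin-positive array, unlike Col1a2 and Col3a1. They fell with the block by 1.28 ± 0.24 and 1.11 ± 0.15 on the log2 scale and missed the threshold without it (limma, adjusted p = 0.0692 for both). Lum and Bgn, proteoglycans of the Dcn family, differed by -2.17 ± 0.80 and -1.73 ± 0.64 and fell with the block.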

How the data were processed

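The deposited values are MAS5 signal intensities on a linear scale, 1 per probe set and array, per the submitters' processing notes, with no version given in the sources used here. Trimmed means of 500 on all 7 arrays show that the authors scaled each array to a common level. MAS5 subtracts mismatch signal, which makes ratios of dim values noisy. Neither detection calls nor scanner data entered the fits. RNA was taken with Trizol and labelled with biotin, per the labels' protocols, and precision is limited by how few arrays there are.

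Of 45101 probe sets, 64 controls were left out. Gene names are those of the platform annotation, brought up to date by gene ID from RefSeq (GRCm38.p6), which changed no collagen symbol. Log2 intensities without a pseudocount of all 7 arrays were fitted by lmFit and trended eBayes of limma 3.58.1 (R 4.3.3; two-sided, no covariates) over 11081 genes, with Benjamini-Hochberg adjustment and a threshold of 0.05. The fit was tested on simulated data. As an alternative, the replicate number was added as a fixed block, because every same-numbered pair correlated more than any pair of different numbers. That contrast is partly built in, and this pairing rests on the data and is not stated in the labels. Samples were grouped by title. Genes given array by array are those called in either fit and the brightest of each class, and of the partner lists up to 4 members by smallest p-value. Other chains of a named collagen type, Col15a1, Col13a1 and Dcn were chosen after their values were seen. Of the partner lists, Serpinh1, Fbln1 and Ddr2 were also named outside this rule. The members, marker lists and partner lists were chosen with earlier results of these data known. Of 8 listed red blood cell genes 0 were tested. Alternatives changed the normalization, pseudocount, filter, treatment of dim values, probe set summary, pairing and each array left out.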

Additional observations from a re-analysis of the deposited data

Results flagged for a closer look

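In 4 of the 19 collagen genes, 1 Nestin-positive array lay far from the other 3 on the log2 scale; chance alone would flag about 1 in 20 groups. For Col18a1 it was replicate 1, the lowest at 2493, whose gap to the next array made up 0.935 of the range of the 4. For Col16a1 it was also replicate 1, with a gap of 0.873 of the range. For Col5a2 and Col6a1 it was replicate 3, the lowest with gaps of 0.845 and 0.863. Nestin-positive replicate 3 has no Nestin-negative partner and does not enter the paired comparison, which is why the change of Col5a2 was 0.52 with the block and 0.30 without it. Without Nestin-positive replicate 3 and without the block, the change of Col5a2 was 0.52 too (adjusted p = 0.198).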

How the results depend on the processing

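The count of collagen genes called was 0 without the block under quantile normalization, a pseudocount of 16, either other filter, dim values raised, the mean of probe sets, probe sets on their own and each array left out, except that it was 1 (Col1a2) without Nestin-negative replicate 1. With the replicate block it was 8, against 9, 6 and 6 without the pairs of replicates 1, 4 and 5 (where 18, 15 and 15 members were tested). In fits chosen after seeing the data, the blocked count was 7 with quantile normalization, 10 with dim values raised, 5 with the mean of probe sets, and 8 probe sets of 6 genes when each was tested on its own. Over all genes the count was 83 without and 1106 with the block. The blocked calls of Col1a2 and Col3a1 were made in every one of these blocked fits. The changes of the 8 genes called with the block and of Col9a3 kept their sign in all these fits. Changes called in neither main comparison did not all do so: with an array or pair left out, Col4a1 reached 0.32, Col5a1 -0.15, Col4a5 -0.12, Col2a1 -0.21, Col23a1 0.01 and Col27a1 -0.29. The collagen and class medians moved by less than the spread between arrays, although that of all collagens was 0.08 with the block without the pair of replicate 5, and that of the basement membrane genes changed sign too (0.24 without the filter, -0.57 to 0.24 with each array left out). Fits without a pair keep few residual degrees of freedom, so their p-values rest on pooled spread. Dim signal limits Col2a1, Col6a1, Col6a2, Col6a3, Col16a1, Col23a1, Col25a1 and every gene not tested.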
